A study of Homo sapiens with 9 samples.

Results

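The oxidative phosphorylation subunits are the proteins that make up the respiratory chain complexes I to IV and the ATP synthase, complex V. They were taken by gene symbol from a table of RNA-seq expression values: nuclear NDUFA, NDUFB, NDUFC, NDUFS and NDUFV genes, SDHA to SDHD, and the standard UQCR, COX and ATP5 subunit symbols, together with the protein-coding genes of mitochondrial DNA. This gave 87 of the 58735 genes in the table, 74 in the nucleus and 13 in mitochondrial DNA, and the symbol rule itself uses no measured value. The nuclear members comprised 36 genes of complex I, 4 of complex II, 8 of complex III, 11 of complex IV and 15 of complex V. The mitochondrial members comprised 7 genes of complex I, 1 of complex III, 3 of complex IV and 2 of complex V, while complex II has none. NDUFA4 was counted with complex IV, where the protein is known to sit, although its symbol is that of a complex I subunit.

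All libraries came from H1299, an established human lung cancer cell line grown in culture. The group Vector, with 3 libraries, held control cells transduced with the lentiCRISPR v2 plasmid. The label gives them a wild type genotype. KO1 and KO2, with 3 libraries each, were 2 lines in which CRISPR editing had knocked out BCKDK, the kinase that switches off the branched-chain keto acid dehydrogenase of mitochondria. Both knockout lines were grown from single cells by limiting dilution, and the labels do not say that the Vector cells were, so what the editing did and what growing a line from 1 cell did cannot be told apart. Whether a group's libraries were separate cultures is not stated, and p-values then measure only how these libraries spread, which may be technical. In such bulk RNA, fewer cells carrying a transcript and less of it per cell cannot be told apart.

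As background, complexes I and II pass electrons to coenzyme Q, complex III passes them on to cytochrome c, and complex IV passes them to oxygen. Complexes I, III and IV pump protons across the inner mitochondrial membrane, and complex V makes ATP as the protons flow back. Complexes I, III, IV and V are built from products of both genomes: the nuclear members are transcribed one by one from their own promoters, while the mitochondrial members are cut from long transcripts that cover nearly the whole circular genome.

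Levels are given as FPKM, reads per kilobase of merged exons, with 1 scaling factor per library. That factor followed the median ratio of reads between libraries (a constant 0.986 of it) and not the total reads of the library. Changes are log2 fold changes of FPKM + 1 from one limma fit of the 16426 genes whose mean reached 0.5 FPKM, with the standard error (SE) of the fit. A gene was said to have risen or fallen where its Benjamini-Hochberg adjusted p in limma, over all fitted genes of that comparison, was under 0.05. The fit held 86 members. NDUFA7, a complex I accessory subunit, was left out at a mean of 0.450 FPKM, and 33.5% of its exon bases are also annotated to another gene.

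BCKDK itself stood at 12.9 to 17.5 FPKM in Vector, 1.67 to 2.06 in KO1 and 0.287 to 0.628 in KO2. Depth was 16002212 to 17090445 recovered reads per library. Of the epithelial and lung markers, KRT8 (13.5 to 130 FPKM) and KRT18 (53.2 to 359) were present, with the highest values of both in KO1, and KRT19, EPCAM, CDH1, NKX2-1, SFTPC, SFTPB and NAPSA stood at or under 0.514. Markers of leukocytes, endothelium and fibroblasts stood at or under 0.506 FPKM. Replicate 3 of Vector and of KO2 differed from the other libraries of their groups: a chi-square of recovered reads per degree of freedom was 47.8 to 56.5 for pairs with either of them in its group, and 2.44 to 7.15 for the other pairs within a group. The part of KRT8 and KRT18 levels in the member values was not tested. Counts per complex, and values named below where the call or size turned with these 2 libraries, are given with and without them. Leaving out the libraries that lie farthest from their own group lowers the spread within groups. Adjusted p without them are therefore likely too small, and Vector and KO2 then hold only 2 libraries each. Rises and falls given without them are descriptions of the remaining libraries.

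Promoter sequence was looked up for the nuclear members, since factors such as NRF1, the GABP proteins of the ETS family and YY1 are known to bind many of these promoters. RefSeq sequence of build GRCh38.p14, from 250 bases before to 50 bases after the gene start, matched 61 of the 74 nuclear members. The NRF1 motif, whose matches are printed in full below, was searched on either strand like the others and occurred in 15 of the 61 (24.6%) and in 6.98% of the 27305 genes with such a sequence. The ETS motif CCGGAAG occurred in 20 (32.8%, against 12.2% of all), the YY1 motif ATGGCGGC in 12 (19.7%, against 3.67%) and the E-box CACGTG in 7 (11.5%, against 8.78%). The 27305 genes were not limited to those that were fitted, and no set of similar level was compared. A match describes letters and is not a measured binding site. The promoters of UQCRFS1, COX6B1, SDHD, SDHB and NDUFA3 are printed because limma called these members in the same direction in KO1 and KO2. They were thus picked by their values, in comparisons that share the Vector libraries. They are UQCRFS1 at chr19:29213102-29213401 on the minus strand, COX6B1 at chr19:35648073-35648372 on the plus strand, SDHD at chr11:112086623-112086922 on the plus strand, SDHB at chr1:17053983-17054282 on the minus strand and NDUFA3 at chr19:54102605-54102904 on the plus strand. Capitals mark the motif matches, 5′ to 3′ along the gene's strand.
UQCRFS1: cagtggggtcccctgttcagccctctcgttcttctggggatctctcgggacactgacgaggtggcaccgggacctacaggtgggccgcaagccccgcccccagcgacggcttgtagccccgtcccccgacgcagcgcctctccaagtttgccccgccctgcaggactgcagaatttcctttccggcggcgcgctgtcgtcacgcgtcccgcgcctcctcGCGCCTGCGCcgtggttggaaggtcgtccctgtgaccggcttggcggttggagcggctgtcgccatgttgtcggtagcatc
COX6B1: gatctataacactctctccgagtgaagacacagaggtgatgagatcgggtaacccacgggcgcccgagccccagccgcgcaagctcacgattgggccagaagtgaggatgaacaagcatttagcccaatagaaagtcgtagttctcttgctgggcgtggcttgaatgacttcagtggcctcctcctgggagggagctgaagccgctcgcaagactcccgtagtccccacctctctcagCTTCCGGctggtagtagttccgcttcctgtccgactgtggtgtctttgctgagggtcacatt
SDHD: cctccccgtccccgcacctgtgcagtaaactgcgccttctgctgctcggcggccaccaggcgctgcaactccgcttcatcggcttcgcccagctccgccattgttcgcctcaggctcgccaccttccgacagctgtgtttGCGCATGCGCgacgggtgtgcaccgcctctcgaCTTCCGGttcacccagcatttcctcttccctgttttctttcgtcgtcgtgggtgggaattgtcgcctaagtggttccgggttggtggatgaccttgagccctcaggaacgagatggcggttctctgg
SDHB: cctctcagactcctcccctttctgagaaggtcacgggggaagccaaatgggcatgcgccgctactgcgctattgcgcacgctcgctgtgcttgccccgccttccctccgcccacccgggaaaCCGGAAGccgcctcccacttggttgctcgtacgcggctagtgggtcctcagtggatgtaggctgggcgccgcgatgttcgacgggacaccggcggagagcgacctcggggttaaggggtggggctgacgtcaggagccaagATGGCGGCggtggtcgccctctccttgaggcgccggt
NDUFA3: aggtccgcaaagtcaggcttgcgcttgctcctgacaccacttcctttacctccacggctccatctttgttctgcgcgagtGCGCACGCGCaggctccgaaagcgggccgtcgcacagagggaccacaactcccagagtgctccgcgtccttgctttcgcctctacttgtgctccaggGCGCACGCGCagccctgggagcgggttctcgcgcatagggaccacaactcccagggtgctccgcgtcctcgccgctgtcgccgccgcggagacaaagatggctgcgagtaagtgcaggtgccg
The UQCRFS1 sequence holds 1 NRF1 match, GCGCCTGCGC read on the other strand, and that of NDUFA3 holds the NRF1 match GCGCACGCGC at 2 places. SDHD holds an NRF1 match, GCGCATGCGC, and an ETS match on the other strand, CTTCCGG. SDHB holds an ETS match, CCGGAAG, and a YY1 match, ATGGCGGC, and COX6B1 holds only the ETS match CTTCCGG. Members that rose and members that fell both held these motifs, in these examples NRF1 in NDUFA3, which rose, and in UQCRFS1, which fell.

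The members spanned a wide range of levels. By mean over the 9 libraries, the highest nuclear member was ATP5F1B, the catalytic beta subunit of ATP synthase, at 434 FPKM. The highest and lowest of each nuclear set were NDUFS5 (134) and NDUFA7 (0.450) in complex I, SDHB (28.7) and SDHC (8.11) in complex II, UQCRH (93.9) and UQCR11 (5.503) in complex III, COX8A (184) and COX7B (22.8) in complex IV, and ATP5F1B and ATP5MG (4.02) in complex V. The median nuclear member stood at 14.0 FPKM in complex I, 13.9 in complex II, 32.1 in complex III, 43.7 in complex IV and 24.8 in complex V. The 13 mitochondrial members stood between 55.4 FPKM for MT-ATP8 and 12024 for MT-CO1. Merged exons include retained introns of rare transcripts, which lowers the FPKM of a gene with long ones, so the order of levels between genes depends on the annotation.

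In KO1 against Vector, 18 members rose and 7 fell, 25 of 86 or 29.1%, beside 34.1% of all fitted genes (17.4% rising and 16.7% falling). In KO2 against Vector, 1 member rose and 7 fell, 8 of 86 or 9.30%, beside 27.9% of all genes (12.9% rising and 15.0% falling). Between the clones, 9 members were lower and 0 higher in KO2 than in KO1, 10.47% of the members beside 30.9% of all genes (14.5% higher and 16.4% lower). The median log2 change was 0.10, 0.02 and -0.12 over the members in these comparisons, and 0.01, -0.00 and -0.02 over all genes. With each library scaled by its total, the split was 11 rising and 9 falling members in KO1, 3 and 7 in KO2, and 2 higher and 5 lower between the clones. All calls were among the 73 fitted nuclear members. The first 2 comparisons share the Vector libraries, so their values stand side by side below without a count of what they have in common. Without Vector replicate 3 and KO2 replicate 3 the counts were 30 rose and 20 fell in KO1, beside 29.5% and 27.3% of all genes (56.8% in all). In KO2, 19 rose and 16 fell, beside 24.1% and 25.4% (49.5% in all). Between the clones, 12 were higher and 22 lower in KO2, beside 21.6% and 26.1% (47.7% in all).

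**Figure D1:**
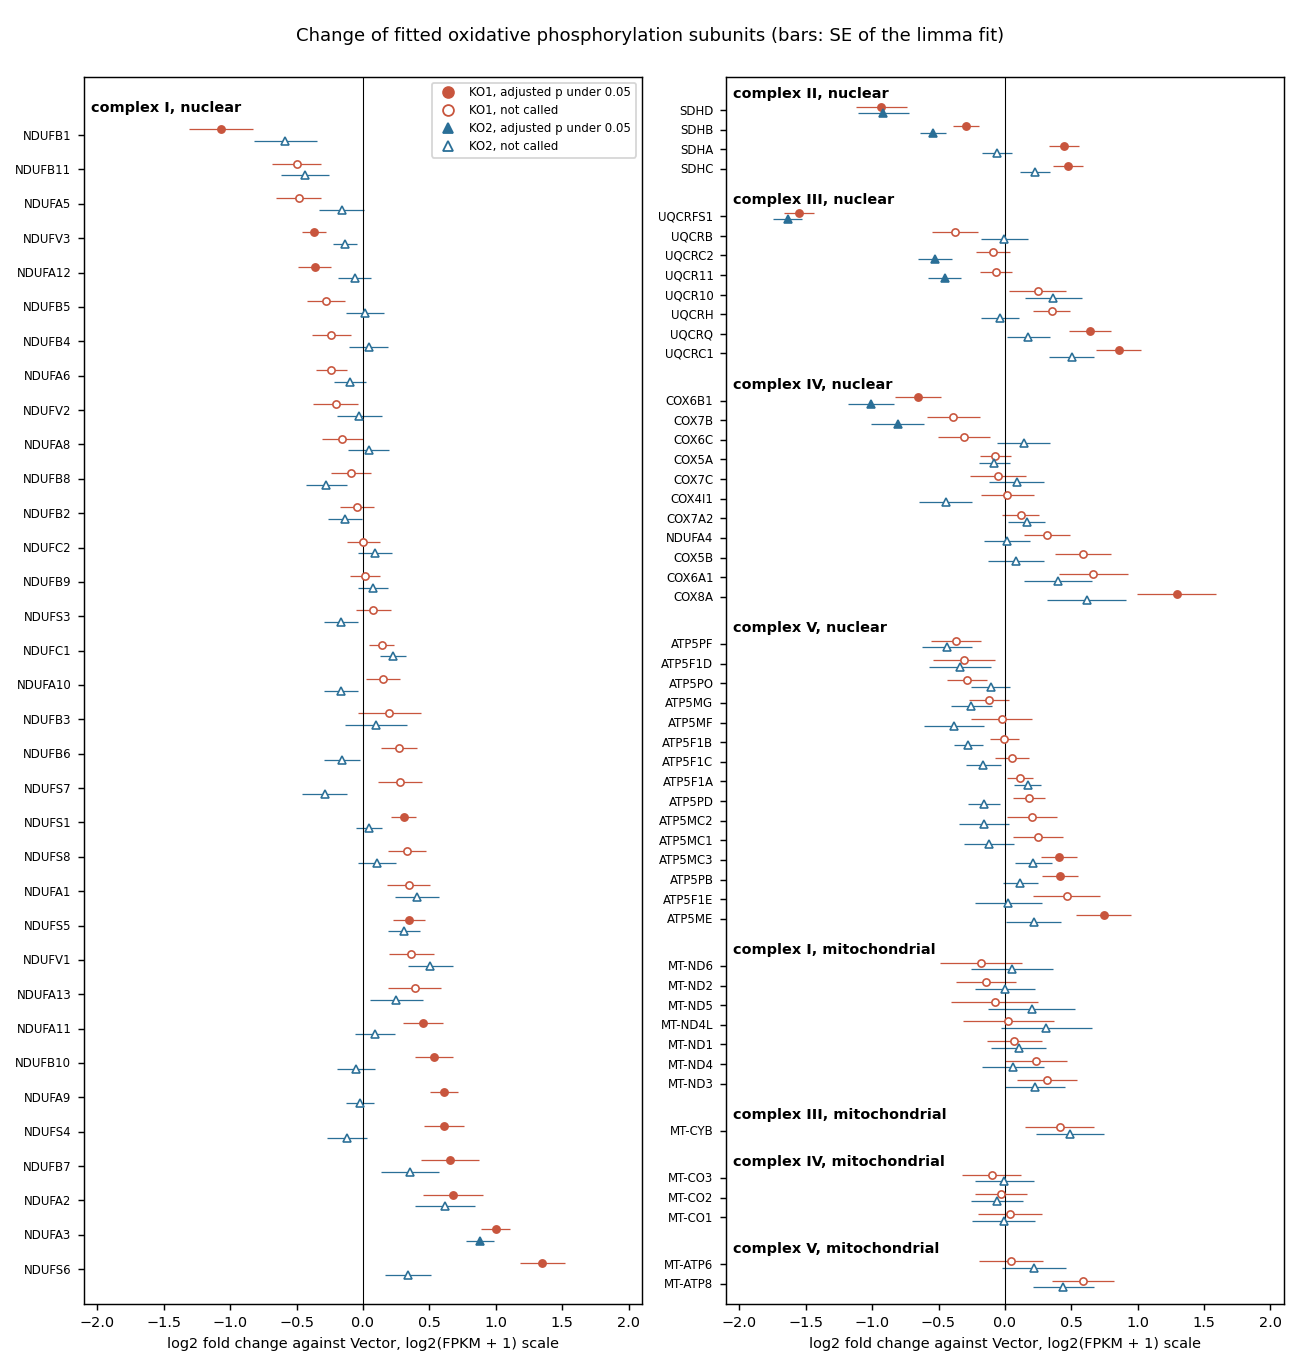
Log2 fold change against Vector of all but 1 of the 86 fitted members on the log2(FPKM + 1) scale, by complex and genome, with bars for the SE of the limma fit (3 libraries a group). Filled symbols mark an adjusted p under 0.05: 25 in KO1 (circles) and 8 in KO2 (triangles), all nuclear, with UQCRFS1 farthest to the left at -1.55 and -1.64.

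Complex I takes electrons from NADH. The counts per complex stand beside the shares of all genes given above, with and without Vector replicate 3 and KO2 replicate 3. Of its 35 fitted nuclear members, 10 rose and 3 fell in KO1, 1 rose and 0 fell in KO2, and 6 were lower in KO2 than in KO1. With NDUFA4 added to this set of genes, the counts stayed at 10 and 3, 1 and 0, and 0 and 6. Without replicate 3 of Vector and of KO2 they were 15 and 7 in KO1 and 10 and 3 in KO2. Between the clones, 7 were then higher and 8 lower in KO2. The low KO2 count thus turned with these 2 libraries, while the share called of all genes in KO2 went from 27.9% to 49.5%. Scaled by library total, complex I gave 5 that rose and 5 that fell in KO1, and 2 higher and 4 lower between the clones. The largest changes were in accessory subunits, which surround the catalytic core and are needed to assemble or stabilise it.

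NDUFA3, an accessory subunit of the membrane arm, rose in both knockout lines. Its level was 7.66, 7.66 and 9.08 FPKM in Vector, 18.8, 16.6 and 16.3 in KO1, and 17.3, 15.1 and 15.0 in KO2. Each knockout library was above each Vector library, and the clones overlapped each other. The log2 change was 0.999 (SE 0.11, adjusted p 0.000148) in KO1 and 0.88 (SE 0.11, adjusted p 0.000424) in KO2, ratios of the means of 2.12 and 1.94.

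NDUFS6, an accessory subunit that joins late in assembly, rose in KO1 by more than any other member with all libraries in the fit; without Vector replicate 3 and KO2 replicate 3, COX8A rose by more (1.66 against 1.53). It stood at 20.2, 18.6 and 28.4 FPKM in Vector, 64.4, 57.9 and 51.6 in KO1, and 30.7, 30.03 and 24.1 in KO2. KO1 lay above both other groups without overlap, and KO2 overlapped Vector. The change was 1.35 (SE 0.17, adjusted p 0.00037) in KO1, 0.34 (SE 0.17, adjusted p 0.17) in KO2 and -1.01 (SE 0.17, adjusted p 0.00214) in KO2 against KO1. In KO2 it also rose without the 2 libraries, by 0.62 (adjusted p 0.00264).

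NDUFA9 and NDUFS4, accessory subunits of the arm that reaches into the matrix, were also high in KO1 alone of the 3 groups. NDUFA9 was at 1.57, 2.02 and 1.93 FPKM in Vector, 3.28, 3.46 and 3.21 in KO1, and 1.596, 1.76 and 2.03 in KO2. NDUFS4, which is mutated in some families with Leigh syndrome, was at 33.9, 32.0 and 23.1 in Vector, 44.8, 46.1 and 44.9 in KO1, and 27.2, 30.3 and 23.5 in KO2. For both genes every KO1 library was above every library of the other groups, and KO2 overlapped Vector. NDUFA9 rose by 0.61 in KO1 (SE 0.11, adjusted p 0.00224) and was lower in KO2 than in KO1 by -0.63 (SE 0.11, adjusted p 0.00211). NDUFS4 rose by 0.61 in KO1 (SE 0.15, adjusted p 0.0138) and differed between the clones by -0.73 (SE 0.15, adjusted p 0.00637). Without KO1 replicate 2 the adjusted p of NDUFS4 in KO1 against Vector was 0.0506.

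NDUFB1, NDUFV3 and NDUFA12 were the 3 nuclear complex I members that fell in KO1. NDUFB1, of the membrane arm, was at 15.4, 14.9 and 12.8 FPKM in Vector, 7.39, 5.68 and 5.96 in KO1, and 12.4, 11.1 and 5.57 in KO2. All KO1 values were below all Vector values, and KO2 replicate 3 was as low as KO1 while the other KO2 libraries lay near Vector. The change was -1.07 (SE 0.24, adjusted p 0.00854) in KO1 and -0.58 (SE 0.24, adjusted p 0.101) in KO2. NDUFB1 fell by 0.34 in KO2 without the 2 libraries (adjusted p 0.0477) and was 0.80 higher in KO2 than in KO1 (adjusted p 0.00103). NDUFV3 changed by -0.37 (SE 0.09, adjusted p 0.0122) and NDUFA12 by -0.36 (SE 0.12, adjusted p 0.0452) in KO1. The NDUFA12 call was kept in 2 of 9 fits that each left out 1 library, with an adjusted p of up to 0.139 without KO1 replicate 3. NDUFV3 lost its call only without KO1 replicate 2, at an adjusted p of 0.0585.

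The remaining 6 complex I members that rose in KO1 changed by 0.31 to 0.68. NDUFA2 rose by 0.68, NDUFB7 by 0.65, NDUFB10 by 0.54, NDUFA11 by 0.45, NDUFS5 by 0.35 and NDUFS1, which carries iron-sulfur clusters of the NADH-oxidising module, by 0.31, at limma adjusted p of 0.0181 to 0.0498. These are the weaker calls: with each library left out in turn, NDUFB10 kept its call in 6 of 9 fits and the others in 2 to 4, with the highest adjusted p at 0.181 for NDUFS5 without KO1 replicate 2. In KO2 against KO1, NDUFB10 (-0.59, adjusted p 0.0128), NDUFS7 (-0.57, adjusted p 0.0304) and NDUFB6 (-0.43, adjusted p 0.0389) were lower, beside NDUFS6, NDUFS4 and NDUFA9. NDUFS7 carries the iron-sulfur cluster next to coenzyme Q, and 49.1% of its exon bases are also annotated to other genes. NDUFS7 kept its call in 4 of 9 leave-one-out fits and NDUFB6 in 2, with adjusted p of up to 0.107 without KO1 replicate 1 and 0.117 without KO1 replicate 3. NDUFB10 lost its call between the clones without KO1 replicate 1, at an adjusted p of 0.0585. The core subunits NDUFS3, NDUFS8, NDUFV1 and NDUFV2 were called in none of the 3 comparisons; NDUFV1 changed by 0.51 in KO2 at an adjusted p of 0.0523, and rose by 0.57 in KO1 and 0.71 in KO2 without the 2 libraries (adjusted p 0.00151 and 0.00111).

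**Figure D2:**
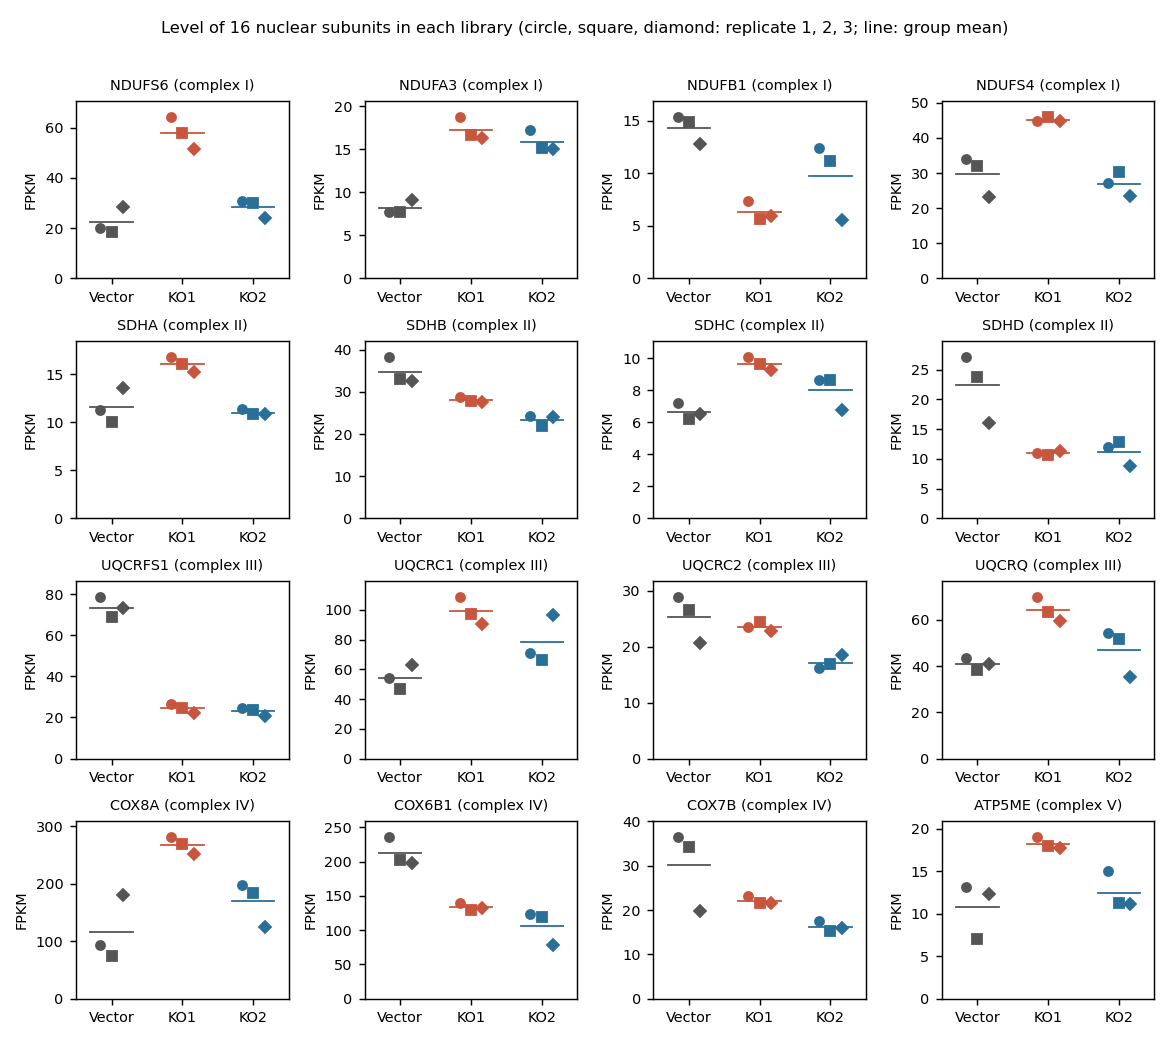
FPKM of 16 nuclear members in each library, with a circle, square and diamond for replicates 1, 2 and 3 and a line for the group mean; each axis starts at 0. UQCRFS1 falls from 68.8 to 78.5 FPKM in Vector to 20.7 to 26.6 in both knockout lines, while NDUFS6 and NDUFS4 stand highest in KO1.

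Complex II, succinate dehydrogenase, links the citric acid cycle to the respiratory chain and is encoded wholly in the nucleus. All 4 of its genes changed in KO1, in opposite directions: SDHA and SDHC rose, and SDHB and SDHD fell. In KO2, SDHB and SDHD fell and the other genes did not pass the test. SDHC also rose in KO2 without the 2 libraries, by 0.32 (adjusted p 0.0129). The KO1 counts were then 2 and 2 as before, and 0 were higher and 2 lower in KO2 than in KO1.

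SDHD, a membrane anchor, stood at 27.2, 23.8 and 16.1 FPKM in Vector, 10.95, 10.7 and 11.3 in KO1, and 12.1, 12.9 and 8.81 in KO2. The knockout libraries were all below the Vector libraries, among which replicate 3 was the lowest. The change was -0.93 (SE 0.19, adjusted p 0.0055) in KO1 and -0.92 (SE 0.19, adjusted p 0.00731) in KO2, and the means were 2.03-fold and 1.99-fold lower than in Vector.

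SDHB, the iron-sulfur subunit, was at 38.3, 33.0 and 32.7 FPKM in Vector, 28.8, 27.8 and 27.6 in KO1, and 24.2, 21.9 and 24.1 in KO2. The 3 groups did not overlap, with Vector highest and KO2 lowest. It changed by -0.54 in KO2 (SE 0.10, adjusted p 0.00351), a call that every leave-one-out fit kept. In KO1 it changed by -0.29 (SE 0.10, adjusted p 0.0455), a call kept in 2 of 9 such fits, with an adjusted p of up to 0.139 without KO1 replicate 2. The clones differed by -0.25 (SE 0.10, adjusted p 0.0806), or by -0.27 (adjusted p 0.0231) without the 2 libraries.

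SDHA, the catalytic flavoprotein, was at 11.2, 10.03 and 13.6 FPKM in Vector, 16.8, 16.03 and 15.3 in KO1, and 11.3, 10.8 and 10.9 in KO2. SDHC, the other membrane anchor, was at 7.23, 6.23 and 6.55 in Vector, 10.1, 9.62 and 9.25 in KO1, and 8.65, 8.61 and 6.77 in KO2. KO1 was above Vector for both genes without overlap, and KO2 overlapped Vector. SDHA rose by 0.44 in KO1 (SE 0.11, adjusted p 0.0152) and was lower in KO2 than in KO1 by -0.50 (SE 0.11, adjusted p 0.00906). SDHC rose by 0.48 in KO1 (SE 0.11, adjusted p 0.0104), and its difference between the clones, -0.25, had an adjusted p of 0.123. Without KO1 replicate 1 the SDHA call in KO1 was lost at an adjusted p of 0.0634, and 6 of 9 leave-one-out fits kept it.

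Complex III takes electrons from reduced coenzyme Q and hands them to cytochrome c. Of its 8 nuclear members, 2 rose and 1 fell in KO1, 3 fell in KO2, and 2 were lower in KO2 than in KO1. Without the 2 libraries, 4 rose and 3 fell in KO1, 3 rose and 3 fell in KO2, and 2 were higher and 5 lower in KO2 than in KO1.

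UQCRFS1, the Rieske iron-sulfur protein and one of the catalytic subunits, had the largest change of any member in both lines with all libraries in the fit; in KO1 without the 2 libraries its -1.55 was smaller in size than the 1.66 of COX8A. It stood at 78.5, 68.8 and 73.0 FPKM in Vector, 26.6, 24.6 and 22.0 in KO1, and 24.4, 23.7 and 20.7 in KO2. All 6 knockout libraries were far below the 3 Vector libraries, and the clones overlapped. The mean was 3.01-fold lower in KO1 and 3.20-fold lower in KO2. The log2 change was -1.55 (SE 0.11, adjusted p 1.21e-05) in KO1 and -1.64 (SE 0.11, adjusted p 1.39e-05) in KO2, with 1166 to 4491 recovered reads per library behind it. The clones differed by -0.09 (SE 0.11, adjusted p 0.603).

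The core proteins UQCRC1 and UQCRC2, which flank the catalytic subunits on the matrix side, did not move together. UQCRC1 was at 53.9, 46.5 and 63.1 FPKM in Vector, 109, 97.5 and 90.8 in KO1, and 71.3, 66.3 and 96.7 in KO2. All knockout libraries were above Vector, and within KO2 replicate 3 was the highest. UQCRC1 rose by 0.86 in KO1 (SE 0.17, adjusted p 0.00421), and its change of 0.50 in KO2 had an adjusted p of 0.051. Without the 2 libraries it rose by 0.45 in KO2 (adjusted p 0.0118) and was lower in KO2 than in KO1 by -0.52 (adjusted p 0.00471).

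UQCRC2 was at 28.9, 26.6 and 20.6 FPKM in Vector, 23.6, 24.4 and 22.8 in KO1, and 16.2, 16.9 and 18.5 in KO2. KO2 was below both other groups without overlap, and KO1 lay within the range of Vector. It changed by -0.53 in KO2 (SE 0.13, adjusted p 0.0146) and by -0.44 in KO2 against KO1 (SE 0.13, adjusted p 0.0289). Leave-one-out fits kept these calls in 6 and 4 of 9, with adjusted p of up to 0.054 without KO2 replicate 1 and 0.0993 without KO1 replicate 2.

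The small accessory subunits UQCRQ and UQCR11 also differed. UQCRQ was at 43.4, 38.5 and 40.7 FPKM in Vector, 69.9, 63.5 and 59.6 in KO1, and 54.1, 51.9 and 35.3 in KO2, and rose by 0.64 in KO1 (SE 0.16, adjusted p 0.0136). KO1 stood apart from Vector, and KO2 replicate 3 lay below all other libraries. Without KO1 replicate 1 the UQCRQ call was lost at an adjusted p of 0.0566. In KO2 it rose by 0.37 without the 2 libraries (adjusted p 0.0142). UQCR11 was at 5.82, 6.12 and 6.83 in Vector, 6.32, 6.004 and 5.45 in KO1, and 4.32, 5.11 and 3.56 in KO2. All KO2 libraries were below the rest. It changed by -0.45 in KO2 (SE 0.12, adjusted p 0.0236) and by -0.39 in KO2 against KO1 (SE 0.12, adjusted p 0.0407), calls kept in 6 and 2 of 9 leave-one-out fits, with adjusted p of up to 0.0624 without KO2 replicate 1 and 0.138 without KO1 replicate 1.

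Complex IV, cytochrome c oxidase, reduces oxygen. Its catalytic core is encoded in mitochondrial DNA, and the nuclear members are accessory. Of these 11, 1 rose and 1 fell in KO1, 2 fell in KO2, and 0 were called between the clones, where 4 had an unadjusted p under 0.05. Without the 2 libraries, 3 rose and 4 fell in KO1, 3 rose and 2 fell in KO2, and 2 were higher and 2 lower in KO2 than in KO1.

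COX8A, a small subunit within the membrane, was at 93.1, 75.2 and 181 FPKM in Vector, 281, 268 and 252 in KO1, and 199, 184 and 126 in KO2. KO1 was above Vector without overlap, and Vector replicate 3 lay within the range of KO2. COX8A rose by 1.29 in KO1 (SE 0.30, adjusted p 0.00946), and its change of 0.61 in KO2 had an SE of 0.30 and an adjusted p of 0.156. With the 2 libraries left out it rose by 1.66 in KO1 (adjusted p 3.21e-05) and by 1.18 in KO2 (adjusted p 0.000248). Part of its exons, 34.5% of the bases, is also annotated to the gene AP000721.1.

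COX6B1, which faces the space between the mitochondrial membranes near the docking site of cytochrome c, was at 236, 202 and 198 FPKM in Vector, 140, 130 and 132 in KO1, and 124, 119 and 77.8 in KO2. The 3 groups did not overlap, with KO2 lowest. COX6B1 changed by -0.66 in KO1 (SE 0.17, adjusted p 0.0179) and by -1.01 in KO2 (SE 0.17, adjusted p 0.00284). Without KO1 replicate 2 the KO1 call was lost at an adjusted p of 0.0634, and 6 of 9 leave-one-out fits kept it.

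COX7B, another membrane subunit, was at 36.4, 34.3 and 19.9 FPKM in Vector, 23.2, 21.5 and 21.5 in KO1, and 17.5, 15.3 and 15.99 in KO2. KO2 was below both other groups, and Vector replicate 3 lay below KO1. The change in KO2 was -0.81 (SE 0.20, adjusted p 0.015), kept in 6 of 9 leave-one-out fits, with an adjusted p of up to 0.0567 without Vector replicate 2. The remaining 8 nuclear complex IV members were called in no comparison; among them, COX6A1 (0.67, adjusted p 0.0741) and COX5B (0.59, adjusted p 0.0577) had the largest changes in KO1. With the 2 libraries left out, COX6A1 rose by 0.85 in KO1 (adjusted p 0.00118) and 0.88 in KO2 (adjusted p 0.00197). COX5B then rose by 0.74 (adjusted p 0.00143) and 0.46 (adjusted p 0.0195).

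Complex V, the ATP synthase, makes ATP from ADP and phosphate. Of its 15 nuclear members, 3 rose and 0 fell in KO1, and 0 were called in KO2 or between the clones, where 2 and 3 had an unadjusted p under 0.05. Without the 2 libraries, 5 rose and 3 fell in KO1, and 2 rose and 4 fell in KO2. Between the clones, 1 was then higher and 3 lower in KO2. The 0 calls thus turned with these libraries. The share called of all genes went from 27.9% to 49.5% in KO2, and from 30.9% to 47.7% between the clones. ATP5ME, subunit e of the membrane part, was at 13.2, 7.04 and 12.3 FPKM in Vector, 19.0, 17.9 and 17.7 in KO1, and 15.1, 11.2 and 11.2 in KO2. KO1 lay above both other groups. ATP5ME rose by 0.74 in KO1 (SE 0.21, adjusted p 0.0221), and 61.6% of its exon bases overlap MYL5 on the other strand. The library kit does not mark strand, so reads of this pair cannot be told apart there. MYL5 as listed changed by -0.54 in KO1 (limma adjusted p 0.026), with means of 3.13 FPKM in Vector and 1.81 in KO1. The part of MYL5 in the ATP5ME values was not tested. ATP5PB, of the peripheral stalk, rose by 0.41 (SE 0.13, adjusted p 0.0378), and ATP5MC3, one of several genes for the same rotor ring subunit c, rose by 0.41 (SE 0.14, adjusted p 0.0469). With each library left out in turn, ATP5ME kept its call in 6 of 9 fits and the other 2 genes in 3, with adjusted p of up to 0.0696 for ATP5ME and 0.123 for ATP5PB without KO1 replicate 1, and 0.157 for ATP5MC3 without Vector replicate 2.

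The catalytic ATP5F1B, the most abundant nuclear member, was at 492, 431 and 463 FPKM in Vector, 489, 456 and 436 in KO1, and 374, 380 and 387 in KO2. KO2 was below both other groups without overlap. The change in KO2 was -0.28 (SE 0.11, adjusted p 0.0892) and did not pass the test; without the 2 libraries it was -0.29 (adjusted p 0.0362) and passed.

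Several changes of nuclear members went with changes of the genes around them. For each member, the other fitted genes whose midpoints lie within 5 Mb were taken, at least 10 of them. Their median log2 deviation from each gene's own mean was read per library. The difference of its group means is called the neighbour median. Over the 73 nuclear members, Pearson's r between a member's change and this median was 0.68 in KO1, 0.72 in KO2 and 0.64 between the clones. Over 16337 fitted genes it was 0.39, 0.37 and 0.31. The points share the libraries, and neighbouring members share genes, so these are descriptions. The 16337 genes were not matched to the members in level, so whether the higher r is particular to the members was not tested. The share of members with the same sign as the median was 68.5% in KO1, 58.9% in KO2 and 79.5% between the clones, beside 66.8%, 63.7% and 62.4% of all genes, so in KO2 it was below that of all genes. The median was -0.87 in KO1 and -1.03 in KO2 around UQCRFS1, -0.60 and -0.67 around COX6B1, and 0.50 and 0.48 around NDUFA3, all 3 on the long arm of chromosome 19. Other members on that chromosome, from ATP5F1D to NDUFA13, had neighbour medians of -0.00 to 0.24 in KO1 and 0.07 to 0.17 in KO2.

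With the neighbour median of each library subtracted before the fit, UQCRFS1 still fell by 0.68 in KO1 (adjusted p 0.0013) and by 0.60 in KO2 (adjusted p 0.0029). NDUFA3 still rose by 0.49 (adjusted p 0.0029) and 0.40 (adjusted p 0.01). COX6B1 changed by -0.06 (adjusted p 0.84) and -0.33 (adjusted p 0.19) and was no longer called. NDUFB1, with a neighbour median of -0.83 in KO1, changed by -0.23 (adjusted p 0.49). SDHD kept its call in KO1 at -0.60 (adjusted p 0.036) and lost it in KO2 at -0.53 (adjusted p 0.06). NDUFS6 and SDHA, both near the end of the short arm of chromosome 5, rose in KO1 although their neighbour medians were -0.11 and -0.19. Why members moved with their neighbours was not tested.

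**Figure D3:**
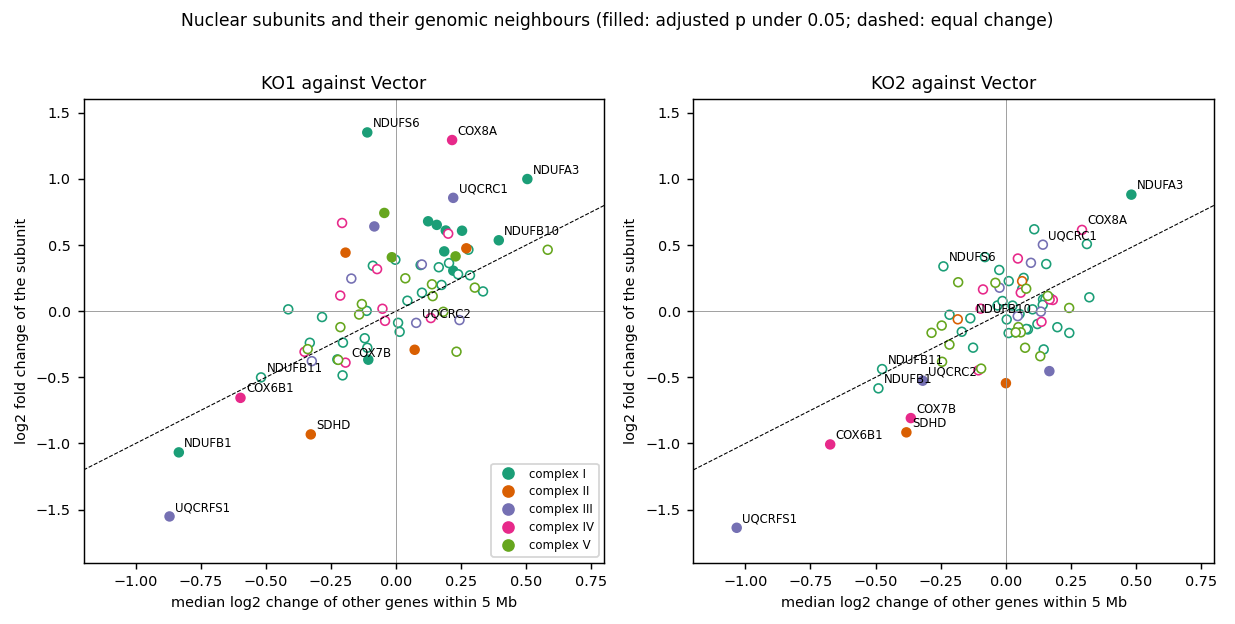
Log2 change of each of the 73 fitted nuclear members (vertical) against the median log2 change of other genes within 5 Mb (horizontal) in KO1 and KO2 against Vector, filled where the adjusted p was under 0.05; the dashed line marks equal change. UQCRFS1, COX6B1 and NDUFB1 lie to the lower left and NDUFA3 to the upper right, while NDUFS6 in KO1 rises with a neighbour median below 0.

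The fitted gene with the nearest start was also read for the members called in these comparisons. MRPL36, a protein of the mitochondrial ribosome, starts 34 bases from NDUFS6 in the opposite direction and rose by 1.26 in KO1 (adjusted p 0.000103), beside 1.35 for NDUFS6. CPSF2, a factor in cutting the ends of messenger RNA, starts 20 bases from NDUFB1 in the opposite direction and changed by -1.07 in KO1 and -0.70 in KO2, beside -1.07 and -0.58. TIMM8B, a protein import factor that starts 25 bases from SDHD and overlaps it, changed by 0.11 and -0.10, while SDHD fell in both lines. OSCAR starts 36 bases from NDUFA3 in the opposite direction and changed by 2.92 in KO1 and -0.02 in KO2, while NDUFA3 rose in both. POP4, the nearest fitted gene to UQCRFS1 at 390476 bases, changed by -0.83 and -1.16. These pairs were picked for description after their values were seen.

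The 13 mitochondrial members were called in none of the 3 comparisons by limma, beside the percentages of all genes given above; at an unadjusted p under 0.05 the counts were 1, 0 and 0. Their log2 changes ran from -0.18 to 0.59 in KO1 and from -0.06 to 0.49 in KO2, where 9 were above and 4 below 0 and the median was 0.10. Without Vector replicate 3 and KO2 replicate 3 the direction in KO2 turned: 2 were above and 11 below 0, from -0.49 to 0.07, with a median of -0.32. In KO1 they ran from -0.31 to 0.42 and the median went from 0.04 to -0.08. With all libraries in the fit, of complex I, MT-ND1 changed by 0.07 and 0.10 in KO1 and KO2, MT-ND2 by -0.14 and -0.00, MT-ND3 by 0.32 and 0.23, MT-ND4 by 0.23 and 0.06, MT-ND4L by 0.03 and 0.31, MT-ND5 by -0.08 and 0.20, and MT-ND6, the only member on the other strand of the circle, by -0.18 and 0.05. MT-CYB, the cytochrome b of complex III, changed by 0.41 and 0.49, and by 0.31 and 0.07 without the 2 libraries. The complex IV core genes MT-CO1, MT-CO2 and MT-CO3 changed by 0.04, -0.03 and -0.10 in KO1 and by -0.01, -0.06 and -0.01 in KO2. Of complex V, MT-ATP6 changed by 0.05 and 0.22 and MT-ATP8 by 0.59 and 0.44. The SE of these values was 0.19 to 0.34, so changes of the size seen in many nuclear members were not detectable here.

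The replicate spread lay mostly in replicate 3 of Vector and KO2. MT-CO1, the oxygen-reducing subunit, was at 13639, 12002 and 9992 FPKM in Vector, 12240, 12193 and 11844 in KO1, and 9824, 9800 and 16680 in KO2. MT-ND5 was at 1548, 1566 and 1384 in Vector, 1350, 1430 and 1477 in KO1, and 1241, 1262 and 3258 in KO2. MT-CYB was at 4240, 3740 and 3241 in Vector, 4761, 5102 and 4991 in KO1, and 4190, 4170 and 8134 in KO2. KO2 replicate 3 was the highest of its group for 13 of 13 mitochondrial members, from 1.21-fold (MT-CO2) to 2.604-fold (MT-ND5) over the mean of its replicates 1 and 2. In the same library 58 of 73 nuclear members (79.5%) were the lowest of the group, beside 43.0% of all genes. Vector replicate 3 was the lowest of its group for 13 of 13 mitochondrial members, at 0.549 (MT-ND4L) to 0.889 (MT-ND5) of the mean of the other 2 libraries.

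As a share of the summed FPKM of all genes, the mitochondrial members took 23.9%, 23.1% and 18.25% in Vector, 20.1%, 21.2% and 21.6% in KO1, and 20.4%, 20.7% and 30.8% in KO2. The groups overlapped. KO1 minus Vector was -0.788 percentage points (exact 2-sided permutation p 0.7), KO2 minus Vector 2.22 (0.8) and KO2 minus KO1 3.01 (0.8), where 3 against 3 libraries cannot give less than 0.1. Without Vector replicate 3 and KO2 replicate 3 the differences were -2.53, -2.93 and -0.406, so the sign for KO2 turned with these libraries. Of recovered reads the share was 5.10% to 8.86%.

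The ratio of summed mitochondrial to summed nuclear member FPKM was 17.7 to 24.2 in Vector, 18.7 to 21.4 in KO1, and 19.0, 19.6 and 40.0 in KO2. Its differences had exact 2-sided permutation p of 0.5 for KO1 against Vector, and 0.8 both for KO2 against Vector and between the clones. The mitochondrial rRNAs, MT-RNR1 and MT-RNR2, were 2.67-fold and 2.66-fold higher in KO2 replicate 3 than in its replicates 1 and 2, the same direction as the messenger RNAs.

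Fitted without Vector replicate 3 and KO2 replicate 3, a few mitochondrial members were called. MT-ATP8 rose by 0.42 in KO1 (adjusted p 0.022) and was lower in KO2 than in KO1 by -0.40 (adjusted p 0.032). MT-ND6 fell by 0.31 in KO1 (adjusted p 0.032) and by 0.49 in KO2 (adjusted p 0.00908), and MT-ND5 fell by 0.32 in KO2 (adjusted p 0.0231). MT-ND4 was lower in KO2 than in KO1 by -0.44 (adjusted p 0.026). MT-ATP8 shares 46 of its 207 bases (22.2%) with MT-ATP6 and was listed at 33.3 to 81.8 FPKM where MT-ATP6 was at 6030 to 12072, and how reads over both genes were assigned is not given in the sources used here.

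**Figure D4:**
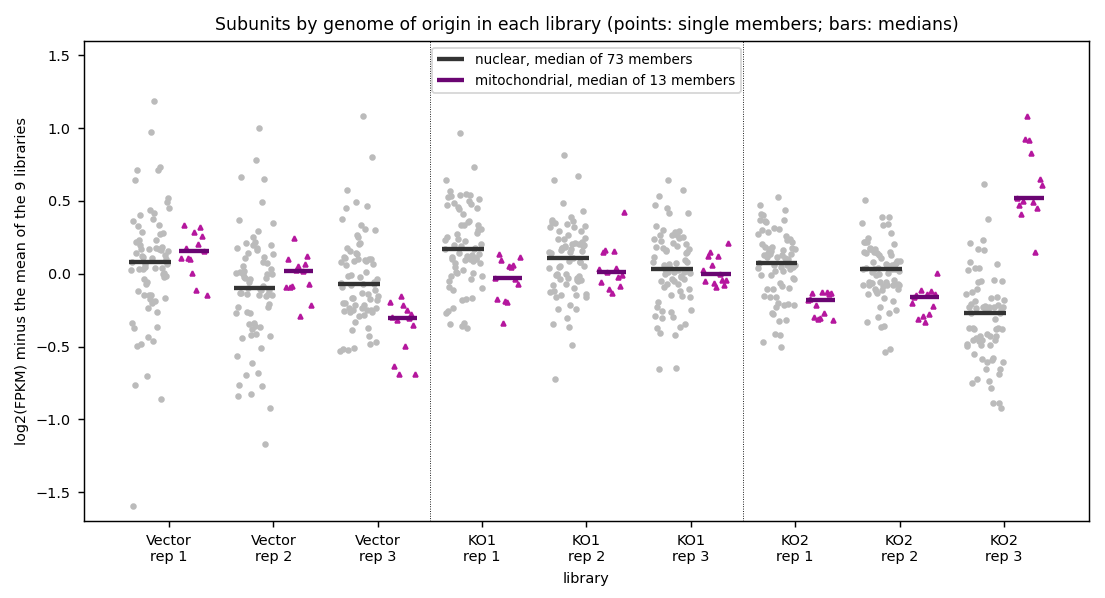
Level of each of 73 nuclear (grey circles) and 13 mitochondrial members (purple triangles) in the 9 libraries as log2(FPKM) minus its mean over the libraries; bars are medians over members. In KO2 replicate 3 the mitochondrial members are above and most nuclear members below their own means, and in Vector replicate 3 the mitochondrial members are below.

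Vector replicate 3 also stood apart by base composition. In it, the deviation of the 73 nuclear members from the mean of replicates 1 and 2 went with the GC content of the longest transcript at r = 0.73, beside 0.72 over all fitted genes. COX8A, NDUFB7 and ATP5F1D, with 181, 96.1 and 64.2 FPKM there, stood well above the other Vector libraries. In KO2 replicate 3 the same r was -0.02 over the nuclear members and -0.26 over all genes. GC of the nuclear members ran from 35.0% to 65.0% with a median of 47.9%, beside 47.5% for all genes. With a smooth trend over GC and transcript length removed from each library, 37 members (43.0%) were called in KO1, 21 (24.4%) in KO2 and 22 (25.6%) between the clones, beside 46.0% of all genes, 40.8% and 43.8%.

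**Figure D5:**
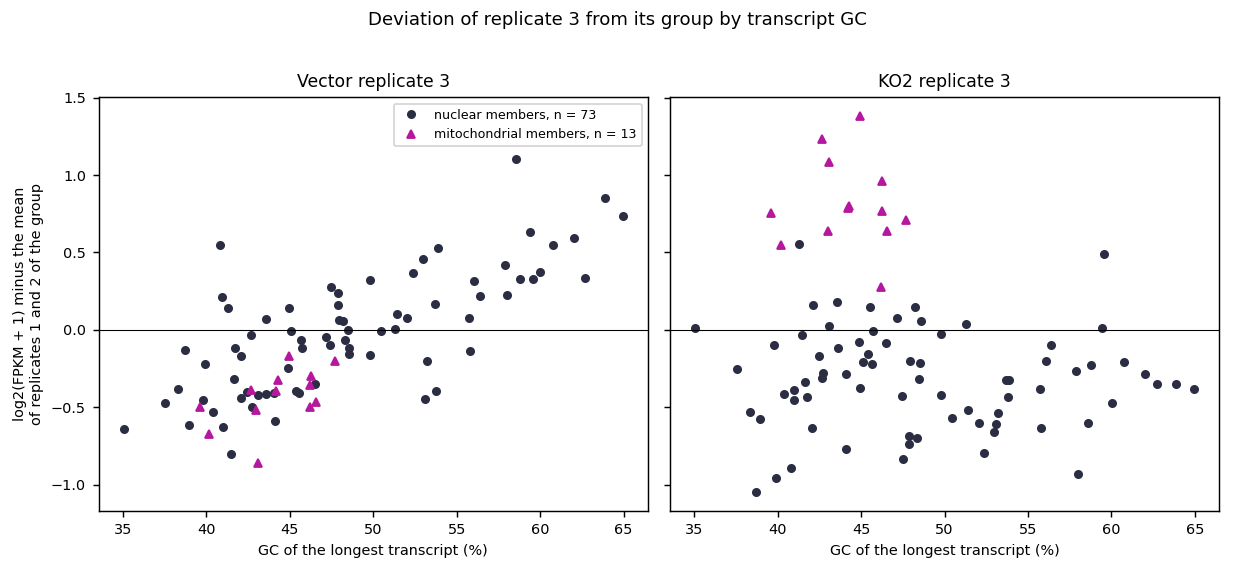
Deviation of Vector replicate 3 and KO2 replicate 3 from the mean of replicates 1 and 2 of the group, as a difference of log2(FPKM + 1), against the GC percentage of each member's longest transcript. In Vector replicate 3 the nuclear members rise with GC (r = 0.73, n = 73), and in KO2 replicate 3 the 13 mitochondrial members lie above 0 at all GC values.

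Genes that serve the complexes, and further subunits that the symbol rule did not take, were read from lists of their own. The list counts stand beside the shares of all fitted genes, 17.4% rising and 16.7% falling in KO1, and 12.9% and 15.0% in KO2. Between the clones, 14.5% of all genes were higher and 16.4% lower in KO2. No list was tested as a set against these shares. Assembly factors help build the complexes, and of 49 fitted, 10 rose and 8 fell in KO1, 1 rose and 7 fell in KO2, and 3 were higher and 12 lower in KO2 than in KO1. BCS1L, which inserts the Rieske protein into complex III, rose by 0.98 in KO1 (adjusted p 0.000462; means 7.33, 15.4 and 7.77 FPKM in Vector, KO1 and KO2), where UQCRFS1 fell. COX19, a copper-handling factor of complex IV, rose by 0.85 in KO1 (adjusted p 0.000326). SDHAF3 and SDHAF4, assembly factors of complex II, fell by 1.22 (adjusted p 0.000159) and 0.96 (adjusted p 0.000731) in KO1. In KO2, NDUFAF4 fell by 1.17 (adjusted p 0.00214), CMC2 fell by 0.75 (adjusted p 0.00261) and COA1 rose by 0.27 (adjusted p 0.0433). Between the clones, NUBPL was 0.64 and NDUFAF1 0.49 higher in KO2, and COX19 (-0.85) and BCS1L (-0.92) were lower.

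Of 77 fitted proteins of the mitochondrial ribosome, which translates the 13 mitochondrial messages, 15 rose and 4 fell in KO1, 5 rose and 11 fell in KO2, and 3 were higher and 18 lower in KO2 than in KO1. MRPL36 rose by 1.26 and MRPL52 by 1.05 in KO1, and MRPL40 fell by 0.88 and MRPL45 by 0.48. In KO2, MRPL53 rose by 0.84 and MRPL23 by 1.11, and MRPL2 fell by 0.92 and MRPS16 by 0.49. Between the clones MRPL40 (0.52) and MRPL53 (0.63) were higher and MRPS23 (-0.96) and MRPL2 (-1.13) lower in KO2. The median change over the list was 0.14, -0.08 and -0.22 in KO1, KO2 and KO2 against KO1.

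The carriers and partners of the chain, with coenzyme Q synthesis and ADP and ATP exchange, numbered 24 genes, of which 3 rose and 5 fell in KO1, 1 rose and 8 fell in KO2, and 1 was higher and 7 lower in KO2 than in KO1. COQ5, a methyltransferase of coenzyme Q synthesis, fell by 1.47 in KO1 (adjusted p 5.43e-05) and by 1.62 in KO2 (adjusted p 4.35e-05), with means of 6.63, 1.76 and 1.48 FPKM in Vector, KO1 and KO2. COQ2 fell by 0.85 in KO1 and was 0.46 higher in KO2 than in KO1. PDSS1 fell by 0.61 in KO2, and COQ7 was lower in KO2 than in KO1 by -0.63. SLC25A4, which exchanges ADP for ATP, rose by 0.99 in KO1 and was lower in KO2 by -0.69, and ETFB, which passes on electrons from fatty acid and amino acid oxidation, rose by 0.79 in KO1 and 0.69 in KO2.

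Another list held subunits that the symbol rule did not take: tissue-specific forms, regulatory proteins, gene copies and further standard subunits. Of 11 fitted, 1 rose and 3 fell in KO1, and 0 rose and 3 fell in KO2. Between the clones, 1 was higher and 1 lower in KO2. COX7B2, a paralog of COX7B, was at 9.92 ± 1.1 FPKM in Vector (SD, n = 3), 0.128 ± 0.16 in KO1 and 0.220 ± 0.16 in KO2, a change of -3.28 (adjusted p 8.57e-07) and -3.16 (adjusted p 1.45e-06). ATP5MPL, a small ATP synthase subunit that the complex V counts above do not hold, fell by 1.06 in KO1 and 0.88 in KO2. CYC1, a complex III subunit that the complex III counts above do not hold either, was counted in the list of carriers. UQCRHL, a near copy of UQCRH whose reads cannot be told apart with certainty, rose by 0.50 in KO1. COX7A1 was 0.94 higher and NDUFAB1 lower (-0.72) in KO2 than in KO1.

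Factors that act on mitochondrial DNA and RNA were read beside the mitochondrial members. Of 16 fitted genes of DNA maintenance and transcription, 1 rose and 4 fell in KO1, 1 rose and 4 fell in KO2, and 2 were higher and 2 lower in KO2 than in KO1. MGME1, a mitochondrial exonuclease, fell by 0.75 and 0.73, MTERF1 fell by 0.78 and RNASEH1 rose by 0.30 in KO1, and TOP1MT rose by 0.80 and TFB1M fell by 0.53 in KO2. Between the clones MTERF1 (0.62) and TOP1MT (0.60) were higher and RNASEH1 (-0.46) and TWNK (-0.39) lower in KO2. Of 16 fitted RNA processing genes, 1 rose and 5 fell in KO1, 1 rose and 6 fell in KO2, and 2 were higher and 2 lower in KO2 than in KO1. SLIRP, which with LRPPRC protects mitochondrial messages, fell by 0.82 and 0.63, HSD17B10 rose by 0.79 and 0.57, FASTKD1 fell by 0.63 in KO1 and REXO2 by 0.88 in KO2. TRMT10C (0.94) and FASTKD5 (0.33) were higher and REXO2 (-0.84) and SUPV3L1 (-0.40) lower in KO2 than in KO1.

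Of 13 fitted regulators of mitochondrial biogenesis, 2 rose and 4 fell in KO1, 0 rose and 1 fell in KO2, and 3 were higher and 0 lower in KO2 than in KO1. PPARGC1A, the coactivator PGC-1 alpha, averaged 0.200 FPKM in KO1, beside 1.41 in Vector and 1.68 in KO2, and it fell by 1.004 in KO1 (adjusted p 0.000128) and was 1.16 higher in KO2 than in KO1. YY1 fell by 0.98 in KO1 (adjusted p 7.82e-05) and 0.30 in KO2 (adjusted p 0.0442), and was 0.69 higher in KO2 than in KO1. CREB1 rose by 0.52 and ESRRA by 0.79 in KO1.

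Of 23 fitted mitochondrial rRNAs and tRNAs, 3 rose and 2 fell in KO1, 4 rose and 1 fell in KO2, and 2 were higher and 2 lower in KO2 than in KO1. All of these calls were of tRNAs, which are short and had few reads. MT-TH (1.64 and 2.23) and MT-TL2 (1.61 and 1.69) rose in KO1 and KO2, MT-TM (-2.00) fell in KO1 and MT-TS1 (-1.60) fell in KO2. MT-TV changed by -1.19 in KO1 and 1.80 in KO2 and was 2.99 higher in KO2 than in KO1, where MT-TR (2.12) was also higher and MT-TW (-1.77) and MT-TS1 (-2.07) lower. Nuclear copies of mitochondrial genes were read as a sign of reads placed elsewhere: of 394 such genes, 12 were fitted, 0 were called in KO1, MTND1P23 fell by 0.44 in KO2, MTCO1P47 (0.81) and MTCO1P28 (0.39) were higher and MTND1P23 (-0.65) lower in KO2 than in KO1, at group means of 0.291 to 2.36 FPKM. Whether reads of these copies and of the mitochondrial members were assigned to one or the other was not tested.

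Without Vector replicate 3 and KO2 replicate 3, more genes of these lists were called, as for all genes. Of all genes, 29.5% then rose and 27.3% fell in KO1, and 24.1% and 25.4% in KO2. Between the clones, 21.6% were higher and 26.1% lower in KO2. In KO1 against Vector the assembly factors then gave 15 that rose and 14 that fell, the mitochondrial ribosomal proteins 36 and 14, and the carriers 7 and 8. The subunits outside the symbol rule gave 3 and 5, the DNA maintenance genes 3 and 8 and the RNA processing genes 3 and 7. The biogenesis regulators gave 4 and 4 and the rRNAs and tRNAs 5 and 8. In KO2 against Vector the same lists gave 10 and 13, 20 and 18, 7 and 12, 1 and 6, 3 and 7, 2 and 10, 1 and 4, and 3 and 8. In KO2 against KO1 they gave 9 and 14, 8 and 27, 4 and 9, 2 and 2, 6 and 3, 4 and 8, 4 and 4, and 3 and 8. For KO2, the mitochondrial ribosomal proteins thus went from 5 rising and 11 falling to 20 and 18 of 77. That is near the shares of all genes.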

How the data were processed

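RNA-seq of 9 H1299 libraries (3 groups of 3) was analysed from 1 table of FPKM per gene that the authors deposited. RNA was taken up in TRIzol and sequenced from NEBNext Ultra libraries, per the labels' protocols. The submitters' processing notes name CASAVA 1.6, HISAT2 2.0.5, featureCounts 1.5.0-p3 and hg38; which tool used which options, and what became of shared reads, is not given in the sources. All 58735 gene identifiers matched GENCODE release 29.

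Each FPKM value times the merged exon length was a whole multiple of 1 read (100% of values within 0.02 reads), which gave 16002212 to 17090445 reads per library. Limma 3.58.1 in R 4.3.3, with a trended prior, was fitted to log2(FPKM + 1) of all 9 libraries with group as the term, for genes whose mean reached 0.5 FPKM; such fold changes understate the change of low genes. The test for FPKM was used since the table held no counts. The fit was also run on simulated reads in which all libraries had the same spread. That run does not cover libraries that differ from their group, as seen here. Tables were summarised with pandas 2.3.3 and numpy 2.4.6. The mitochondrial share was compared by exact permutation tests.

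The members and the gene lists were chosen with earlier results of these data known. The rule for named genes took, per nuclear complex and comparison, up to 3 rising and 3 falling called members with the smallest adjusted p, all 13 mitochondrial members, the highest and lowest member per complex, and up to 2 rising and 2 falling genes per list and comparison. The other called members and further genes were named after their values were seen. In all, 22 alternatives were run: scaling, pseudocount 0.1, filters, limma-voom on recovered reads, GC and length trend, neighbours, replicate block, library weights and left-out libraries. Value columns without a sample numbered 0. RefSeq promoter sequence was of build GRCh38.p14; protein sequence was not used here. The values of 1 member are not reported singly here.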

Additional observations from a re-analysis of the deposited data

Results flagged for a closer look

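In 9 subunits the change against Vector differed between the 2 clones, by the limma test of KO2 against KO1 with Benjamini-Hochberg adjustment over all fitted genes. In complex I the difference on the log2 scale was -1.01 for NDUFS6, -0.73 for NDUFS4, -0.63 for NDUFA9, -0.59 for NDUFB10, -0.57 for NDUFS7 and -0.43 for NDUFB6. It was -0.50 for SDHA of complex II, and -0.44 for UQCRC2 and -0.39 for UQCR11 of complex III. All 9 were lower in KO2. With each library left out in turn, NDUFS6, NDUFS4, NDUFA9 and SDHA kept this call in 9 of 9 fits and NDUFB10 in 8, while NDUFS7 and UQCRC2 kept it in 4 and NDUFB6 and UQCR11 in 2. With the neighbour median subtracted, NDUFB10 (-0.06), NDUFB6 (0.026), UQCRC2 (-0.04) and UQCR11 (-0.31) were no longer called. Since each clone is a single line, a difference between the clones and a difference between edited lines in general cannot be told apart.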

How the results depend on the processing

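The 25 member calls in KO1 against Vector became 39 with the replicate block and the GC and length trend removed, 50 without Vector replicate 3 and KO2 replicate 3, and 52 with library weights; leaving out 1 library gave 10 (without KO1 replicate 2) to 35 (without Vector replicate 3). The 8 in KO2 became 21 with the GC and length trend removed, 24 with the block as well, 35 without both libraries and 45 with weights, and 5 (without Vector replicate 2) to 18 (without Vector replicate 3) with 1 left out. The 9 between the clones became 20 with only the 2 groups compared, 22 with the trend removed, 25 with the block as well, 34 without both and 44 with weights, and 4 (without KO1 replicate 1) to 21 (without Vector replicate 3) with 1 left out. Over all genes, the counts of 5609, 4586 and 5079 became 2940, 2407 and 2839 at a mean of at least 5 FPKM, where fewer genes were tested, 9335, 8138 and 7834 without both libraries, 10779, 10061 and 9764 with weights, 7546, 6704 and 7192 after removal of the trend over GC and length, and 7354, 6414 and 6945 with the block as well; with 1 library left out they ran from 3705 to 7367, 3203 to 6531 and 3337 to 6756. With only the 2 groups compared, KO2 against Vector gave 2963. Scaling each library by its total split the member calls 11 rose and 9 fell in KO1, 3 and 7 in KO2, and 2 and 5 between the clones; over all genes 2214 and 3288, 2239 and 2354, and 2904 and 1935. Limma-voom on recovered reads called 29, 11 and 10 members. The cause of these shifts was not tested.

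Same-numbered libraries did not deviate together (r from -0.20 to 0.14), so the numbers were not taken as pairs; with the number as a replicate block, 19, 8 and 11 members and 4911, 3953 and 4428 genes were called.

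Of 216 member values not called, 112 changed sign in at least 1 alternative, and 11 of 13 mitochondrial members were below 0 in KO2 without both libraries, against 4 with them. Values that turned and also passed the test, or were called and turned, were MT-ND5 in KO2 (-0.32, adjusted p 0.0231) and MT-ND6 in KO2 (-0.49) without both libraries, MT-ND6 (-0.37) and NDUFB10 in KO2 (0.23) with library weights, and NDUFB6 between the clones (0.026) with neighbours subtracted, all by limma. With 1 library left out, MT-ND5 in KO2 ran from -0.26 to 0.44 and MT-ND6 from -0.36 to 0.27. The mitochondrial share difference ran from -2.53 to 0.273 percentage points in KO1, -1.19 to 4.002 in KO2 and -0.406 to 4.79 between the clones with 1 library left out, and was -2.53, -2.93 and -0.406 without both. Of 42 member calls, 18 held in every leave-one-out fit and 14 in every alternative. Depth limits the lowest members most: NDUFA13 stood at a mean of 1.24 FPKM and NDUFV2 at 1.855.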
